A study of Zea mays with 15 samples.

Results

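In the growing internode of young maize plants, 235 probe sets of a maize genome array stood at another level 24 and 48 h after a spray of plain water than in untreated plants at 0 h. They were chosen on those values. A probe set was a member if its mean signal over the 15 arrays reached a fixed floor, if all 6 water arrays lay above, or all 6 below, all 3 untreated arrays, and if the means of log2 signal differed by at least 1, which is a 2-fold change. Of 17621 probe sets other than array controls, 10577 (60.0%) reached the floor. In 506 of these (4.78%) all water arrays lay above the untreated ones and in 420 (3.97%) all lay below, and 250 also met the limit on the difference. Probe sets of 7 named genes were then left out (thi1, thi1-2, hsp101, hsp22, lox1, TIP2-1 and PIP2-6), which removed 7 probe sets (no probe set named PIP2-6 was among the 250), and 8 more were removed because the ethephon arrays lay wholly above, or wholly below, the water arrays of the same time at both times. The remaining 132 probe sets were higher after water than at 0 h and 103 were lower, 2.22% of the probe sets with enough signal. The question asked of them here is whether the arrays of ethephon-sprayed plants, which entered only through the signal floor and that last exclusion, stood on the same side of the untreated arrays.

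Affymetrix maize genome arrays measured total RNA of Zea mays seedlings from 1 greenhouse, taken from meristem tissue of internode number 7. At the jointing stage, with 8 leaves, 100 seedlings were sprayed with 600 mg/L ethephon and 100 with water. The groups were ethephon at 24 h, ethephon at 48 h, water at 24 h, water at 48 h and untreated plants at 0 h, with 3 arrays each and RNA from 3 seedlings per array. The labels give no genotype and no hour of the day, and no ethephon-sprayed plants were taken at 0 h. Between the sprayed plants and those at 0 h, the act of spraying, 24 or 48 h of age and the round of collection therefore cannot be told apart.

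Ethephon is a growth regulator that breaks down inside plant tissue to ethylene, a hormone that restrains stem growth in many plants, and it is sprayed on cereals to shorten the stem. The meristem at the base of an internode supplies new cells, which then take up water, stretch, lay down cell wall and at last stiffen it with lignin. A water spray is the usual control for a growth regulator, and untreated plants taken before the spray show the starting state. What stands apart between water-sprayed and untreated plants is therefore background for any reading of the regulator's effect.

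Only 19 of the 235 probe sets were paired with exactly 1 gene in the annotation used here. They stood for 18 genes, 9 of them higher and 9 lower after water, and bsd2 had 2 probe sets among them. The share with a name, 8.09%, was near that of all 10577 probe sets with enough signal, 8.63%. Another 216 members, 122 higher and 94 lower, had no name, so most of this set can be described here by level only. The 18 genes included 5 that act in chloroplasts or other plastids outside starch synthesis (tha9, rnc1, bsd2, psbs1 and dxs1), 3 of sugar, starch and inositol metabolism (ivr2, GBSSIIa and INO1) and 3 of the cell wall and lignin (4CL, BM1 and expB4).

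**Figure D1:**
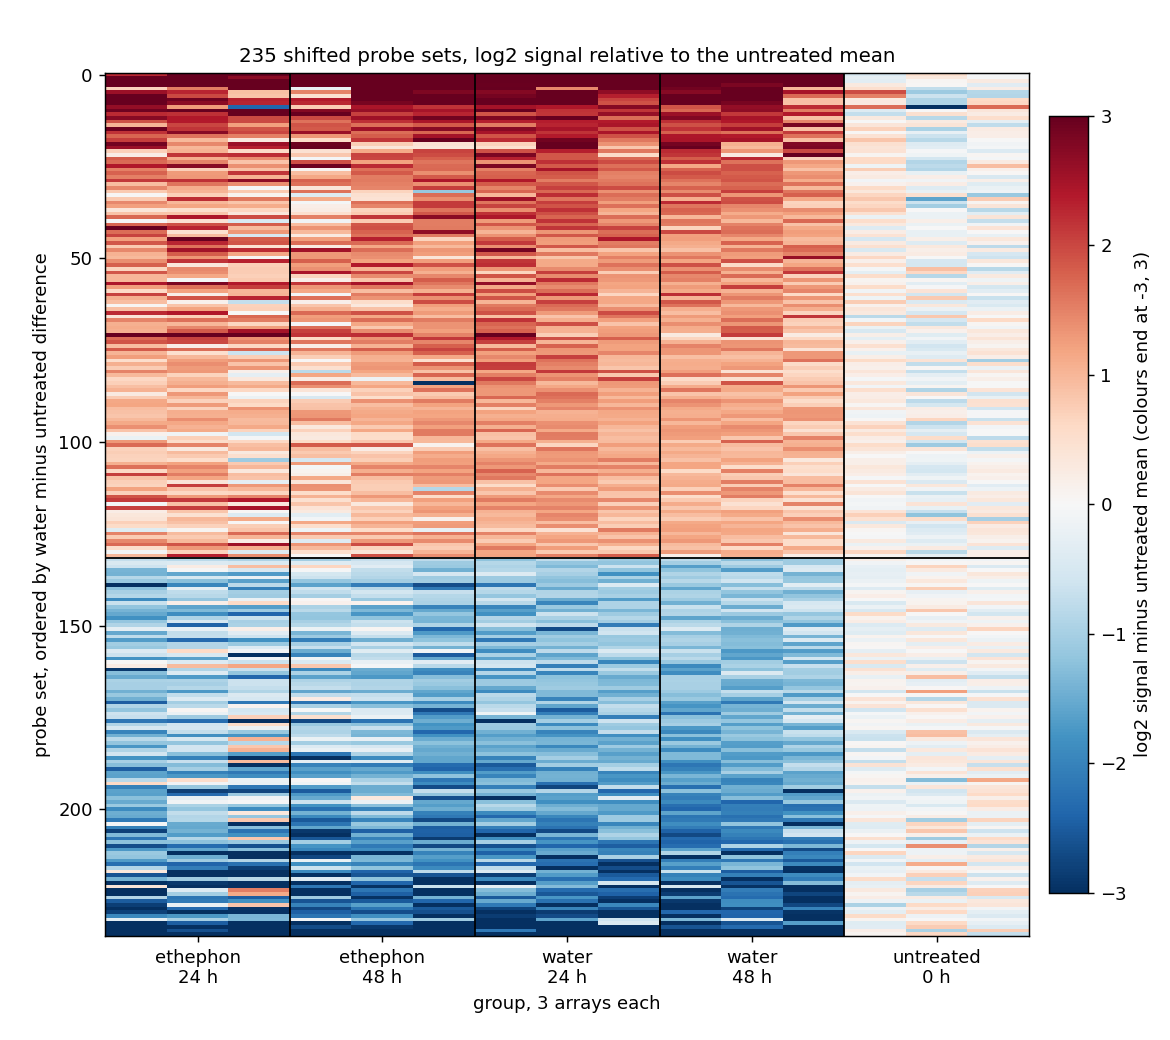
Log2 signal of the 235 probe sets on each of the 15 arrays, relative to the mean of the 3 untreated arrays, with red for higher and blue for lower. Rows are ordered by the difference between water and untreated arrays that chose them. In 72 of the 132 upper rows and 66 of the 103 lower rows all 6 ethephon arrays stand on the same side of the untreated arrays as the water arrays.

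Signals are given as deposited, on the linear scale of the MAS5 algorithm, and differences are of mean log2 signals. By construction the water arrays lay apart from 0 h, so these differences carry no test. Among the 132 higher members the median difference between water and 0 h was 1.34, from 1.00 to 4.28. Among the 103 lower members it was -1.44, from -4.22 to -1.02, while over all 10577 probe sets it was 0.039. Most members lay not far past the limit: 90 higher and 56 lower members differed by less than 1.5, and 19 and 25 by 2 or more. The median gap between the nearest water array and the nearest untreated array was 0.36 for higher and 0.43 for lower members.

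Both times were part of the choice. Higher members had a median of 1.49 at 24 h and 1.22 at 48 h, and 99 of 132 differed more at 24 h. For lower members the medians were -1.51 and -1.45, and 52 of 103 differed more at 24 h. All 6 water arrays entered the rule, so their times are set side by side with no test.

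The members were dimmer and more variable than the array as a whole. Their median mean signal was 581 for higher and 683 for lower members, against 958 for all 10577 probe sets, and the median standard deviation within groups was 0.47 and 0.54 on the log2 scale, against 0.33. In 59 higher members the untreated mean, and in 18 lower members the water mean, was itself below the floor on mean signal. Those probe sets reached the floor only through the groups in which they were high.

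Ethephon arrays mostly stood where the water arrays stood. All 6 ethephon arrays lay above all 3 untreated arrays in 72 of the 132 higher members (54.5%), and 6.96% of all 10577 probe sets met that condition. All 6 lay below in 66 of the 103 lower members (64.1%), beside 6.47% of all. The rule had already placed the 3 untreated arrays at the far end from water, and these same 3 arrays enter here, so the counts are a description and carry no test. Single arrays moved them: without untreated replicate 1 the rule found 347 higher and 243 lower members, of which ethephon arrays followed in 152 and 119. Without untreated replicate 3 it found 222 and 141 (145 and 96 followed), and without water 48 h replicate 3 it found 242 and 163 (104 and 82 followed). At 24 h the 3 ethephon arrays lay above the untreated ones in 89 higher members (14.2% of all probe sets did so) and below them in 70 lower members (13.6%). At 48 h the counts were 81 (10.2%) and 82 (8.85%).

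**Figure D2:**
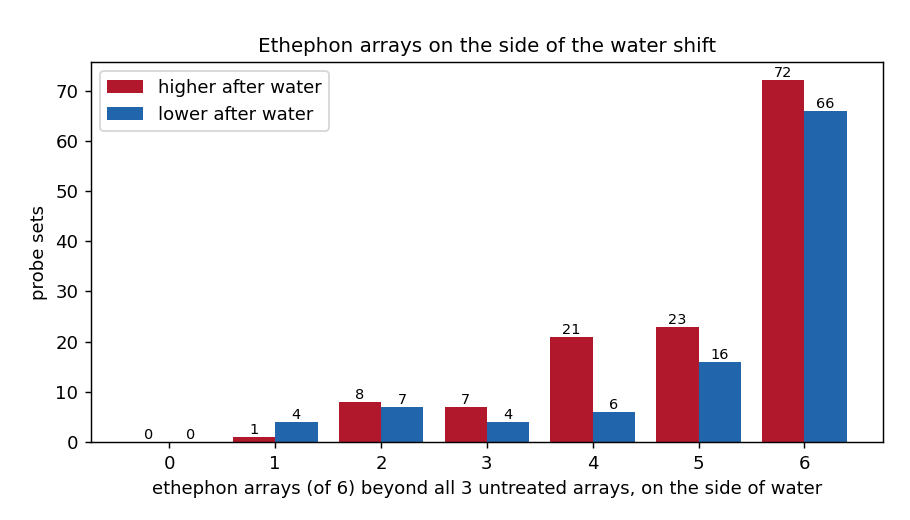
Number of probe sets (vertical axis) by how many of the 6 ethephon arrays lay beyond all 3 untreated arrays on the side of the water arrays (horizontal axis), for higher (red) and lower (blue) members. The tallest bars, 72 and 66, are at 6 arrays, and the bars at 0 arrays are empty.

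No member had all 6 ethephon arrays within or on the other side of the untreated range. In 23 higher and 16 lower members 5 of the 6 arrays lay beyond it, in 21 and 6 members 4 did, and in 16 and 15 members 3 or fewer did. Some members passed at only 1 time. In 17 higher and 4 lower members the 3 arrays cleared the untreated range at 24 h but not at 48 h, and in 9 higher and 16 lower members at 48 h but not at 24 h.

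The median difference between ethephon and 0 h was 1.16 in higher members (1.10 at 24 h and 1.22 at 48 h), beside 1.34 for water. In lower members it was -1.32 (-1.18 at 24 h and -1.41 at 48 h), beside -1.44 for water, and over all probe sets it was 0.042. As a percentage of each member's own water difference, the ethephon difference had a median of 84.3% in higher members and 83.7% in lower members. Its middle range was 65.4% to 109% in higher and 63.7% to 107% in lower members. The ethephon difference was at least as large as that of water in 39 higher and 36 lower members, between 50% and 100% of it in 76 and 51, and under 50% in 17 and 16. Both differences are taken from the same 3 untreated arrays, which the rule chose for lying at one end, so part of their likeness is built in and its size with no change is not known. Water arrays were chosen for being far from 0 h and ethephon arrays were not, so a median below 100% is not evidence of a weaker shift.

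**Figure D3:**
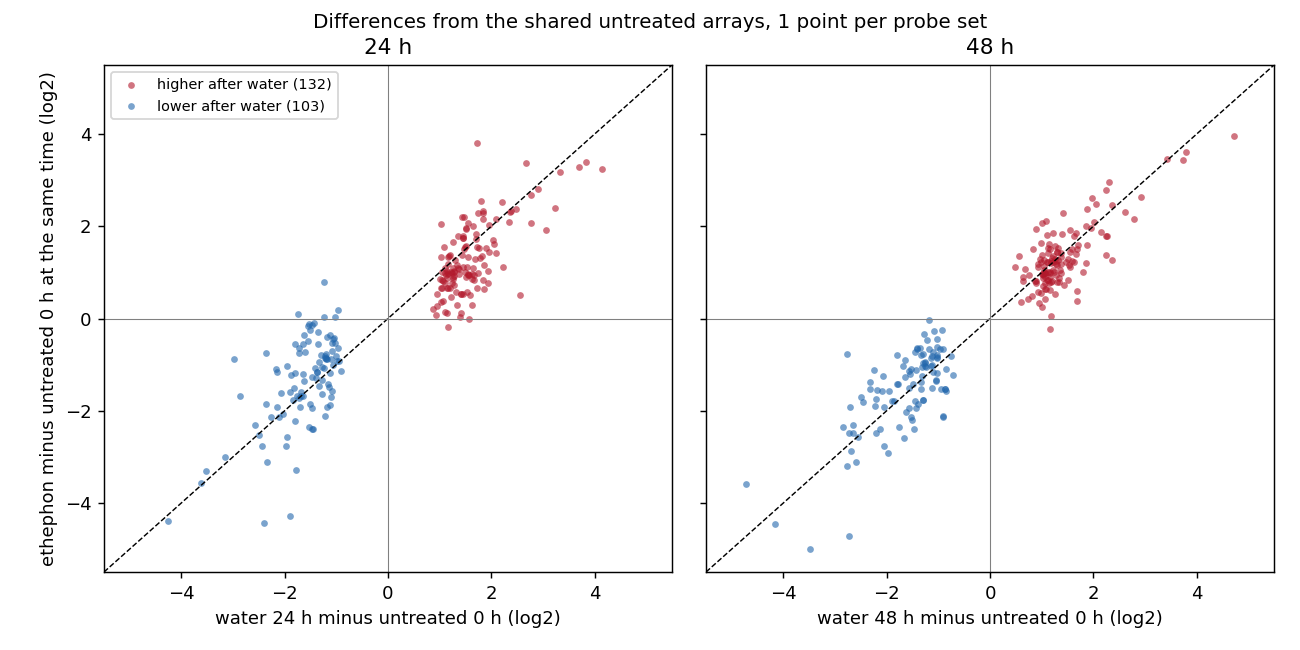
Difference in mean log2 signal from the untreated arrays after ethephon (vertical axis) and after water (horizontal axis), at 24 h and 48 h, with 1 point per probe set and the line of equal differences dashed. Both axes share the 3 untreated arrays, so the slope is partly given. The medians for ethephon were 1.10 and 1.22 in higher and -1.18 and -1.41 in lower members.

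Array by array, the median of the higher members relative to the untreated mean ran from 0.95 to 1.40 on ethephon arrays, from 1.02 to 1.53 on water arrays and from -0.23 to 0.23 on untreated arrays. The median of the lower members ran from -1.64 to -1.02 on ethephon arrays, from -1.59 to -1.35 on water arrays and from -0.09 to 0.05 on untreated arrays. The choice of members placed the untreated arrays at one end, so any other array would tend to stand away from 0, and these medians are a description. The 2 lowest medians of higher members among ethephon arrays were on ethephon 48 h replicate 1 (0.95) and ethephon 24 h replicate 3 (0.99), the 2 arrays with the highest summed signal of secondary wall markers, 16158 and 21984. In lower members these 2 arrays had medians of -1.17 and -1.09. The ethephon median nearest 0 there, -1.02, was on ethephon 24 h replicate 2, with a marker sum of 834. Whether secondary wall tissue took part was not tested.

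Direct comparison of ethephon with water was made with limma, a linear model with moderated variances fitted to all 10577 probe sets, and Benjamini-Hochberg adjustment over all of them. At an adjusted p below 0.05 it called 0 of the 235 members at 24 h, at 48 h or over both times, and 0% of all probe sets. Unadjusted p-values below 0.05 numbered 49 members at 24 h (8.99% of all probe sets), 16 at 48 h (3.24% of all) and 66 over both times (12.6% of all). The water arrays on which members were chosen enter this comparison, which by itself raises those counts and favours differences back toward 0 h, so nothing is read from them. With arrays weighted by their quality, limma called 6 members at 24 h (1.49% of all probe sets) and 29 over both times (5.86% of all), under the same limit. The median ethephon minus water difference at 24 h was -0.34 in higher and 0.22 in lower members, and at 48 h it was -0.10 and 0.22.

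Ethephon and water arrays overlapped in most members. At 24 h the 3 ethephon arrays lay entirely below the 3 water arrays in 36 higher members (10.8% of all probe sets) and above them in 5 (7.04%). In lower members they lay above in 23 and below in 0. At 48 h the counts were 4 above (5.13%) and 4 below (3.9%) in higher members, and 7 above and 7 below in lower members. Arrays of both sprays overlapped in 91 and 80 members at 24 h, and in 124 and 89 at 48 h. Members were chosen on these water arrays, which by itself favours ethephon arrays on the side toward 0 h. Probe sets separated at both times had also been left out, so these counts are a description.

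Ethephon at 48 h against ethephon at 24 h is the comparison in which no water or untreated array enters the difference itself. Those arrays still enter its p-values, because the spread of each probe set was estimated from all groups together. The ethephon arrays had also entered the choice of members, through the signal floor and the exclusion of ethephon-separated probe sets. The p-values are therefore not free of that choice. This comparison called 0 members and 0% of all probe sets, and 14 members (5.96%) had an unadjusted p below 0.05, beside 3.45% of all. The median difference, 48 h minus 24 h, was 0.09 in higher and -0.12 in lower members. The difference between the 48 h and 24 h ethephon responses called 0 members (0% of all), with 4 members at an unadjusted p below 0.05 (0.927% of all), and water arrays take part in it.

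The labelled tissue was checked on genes known to mark it. Of 13 meristem and dividing-cell markers 6 were on the array under a name, and all 6 passed the signal floor, with kn1, the founding homeobox gene of the shoot meristem, at a mean of 3540. Of 10 green leaf markers 6 were found. Above the floor were 4 of them, ssu1 at 7060, psad1 at 2158, ppdk1 at 700 and rca1 at 361. Of the C4 cycle genes ppdk1 thus passed, while pep1 and me3 did not, at 86.2 and 105. Of 7 seed markers, included as genes that should be near background, 5 were found. Of these gz50, ole1 and sh2 were below the floor, at 23.9, 124 and 80.4, but gz27, a seed storage protein gene, was at 641 and bt2, a starch synthesis gene, at 335. Summed signals of the leaf markers ran from 7305 to 13450 at ethephon 24 h, 7589 to 11626 at ethephon 48 h, 8709 to 10260 at water 24 h, 7883 to 15059 at water 48 h and 8617 to 19728 at 0 h, so the groups overlapped. RNA quality moved with the groups. The 3'/5' index compares the probe sets at both ends of 5 control transcripts as a mean log2 ratio, and a higher value means more 3' than 5' signal. It was 3.01 ± 0.15 at ethephon 24 h, 2.73 ± 0.09 at ethephon 48 h, 2.88 ± 0.32 at water 24 h, 2.05 ± 0.39 at water 48 h and 1.64 ± 0.78 at 0 h (SD, n = 3 each). With this index as a covariate, the water difference kept its sign in all 235 members and stayed at 1 or more in 98 of 132 higher and 91 of 103 lower members. Members had been chosen for a difference of at least 1, so a kept sign was likely in advance. The index also moved with the groups, so the covariate cannot separate RNA quality from them, and a part of RNA quality was not tested. Array-wide, 0 of 15 arrays correlated best with an array of their own group, and untreated replicate 2 and water 48 h replicate 3 were closest to each other (Pearson r = 0.907 across probe sets, which are not independent). Untreated replicate 2 also had the lowest index, 0.743, and without it the rule found 134 higher and 119 lower probe sets.

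**Figure D4:**
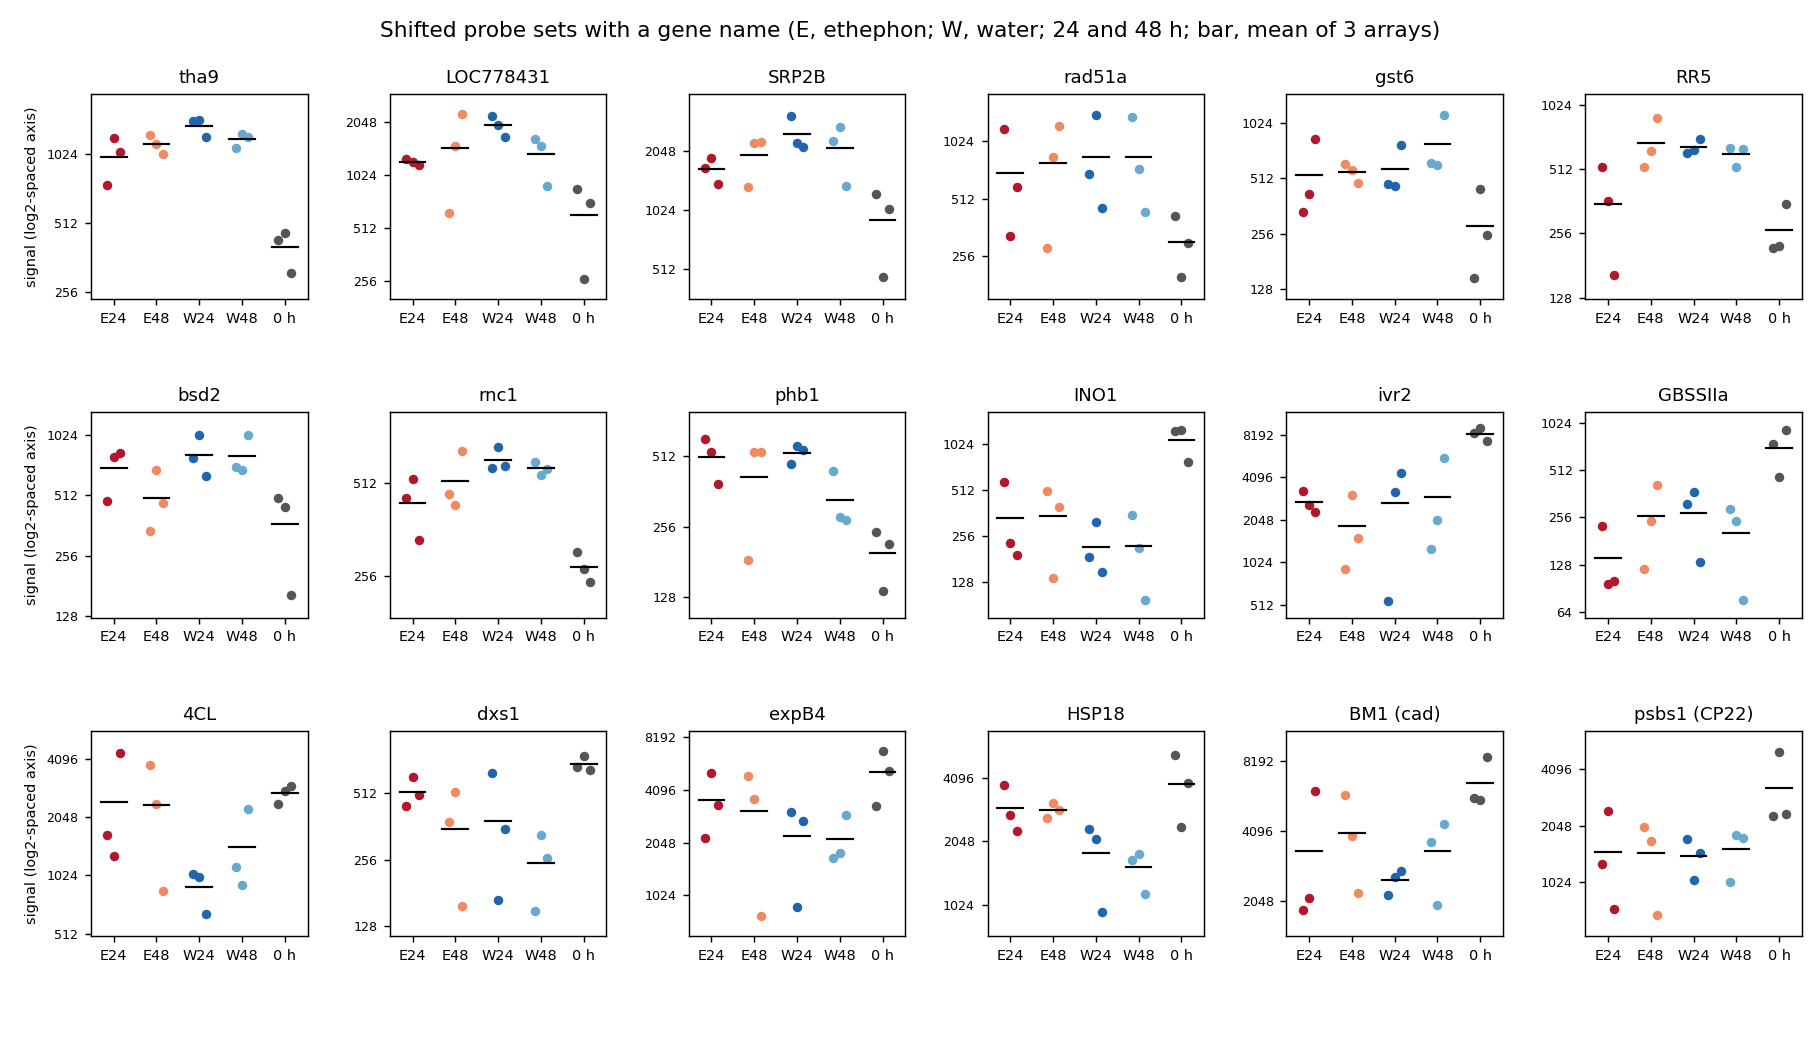
Signal on each array (points, log2-spaced axis) and group mean (bar) for the 18 named genes, with ethephon at 24 and 48 h left of water at 24 and 48 h and the untreated arrays at the right. The first 9 panels are higher and the last 9 lower after water, and all 6 ethephon points stand clear of the untreated ones in tha9, SRP2B, rnc1, INO1, ivr2, GBSSIIa and dxs1.

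Plastid members stood on both sides. The gene tha9 encodes a part of the twin-arginine system that carries folded proteins into thylakoids. Its signal was 751, 1207 and 1045 at ethephon 24 h, 1244, 1138 and 1024 at ethephon 48 h, 1433, 1453 and 1221 at water 24 h, 1090.3, 1264 and 1225 at water 48 h, and 433, 465 and 311 at 0 h. Every ethephon array was far above every untreated one, on the side where the rule had placed the water arrays. The sprays overlapped at 48 h only. Against 0 h the difference was 1.31 and 1.51 with ethephon at 24 and 48 h and 1.68 with water. Ethephon minus water at 24 h was -0.47 ± 0.20 (SE; limma, Benjamini-Hochberg adjusted p = 0.545). Its probe set bears the suffix that the manufacturer gives where probes may match transcripts of more than 1 gene, so a close relative may share the signal.

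The gene rnc1 encodes a factor for splicing of chloroplast introns. It read 457, 529 and 333 at ethephon 24 h, 471, 435 and 650.1 at ethephon 48 h, 572, 668 and 580.1 at water 24 h, 599.7, 544 and 569.8 at water 48 h, and 307, 271 and 244 at 0 h. All 6 ethephon arrays were above the 3 untreated ones, as the rule required of the water arrays, and the water arrays were tightly grouped. The differences from 0 h were 0.66 and 0.90 with ethephon and 1.11 with water.

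Named for maize mutants with defective bundle sheath, bsd2 encodes a chaperone of Rubisco assembly. Its brighter probe set read 479, 792 and 830 at ethephon 24 h, 340.2, 682 and 467 at ethephon 48 h, 789.5, 1022 and 641 at water 24 h, 709, 682 and 1024 at water 48 h, and 495, 447 and 164 at 0 h. Here 3 of 6 ethephon arrays fell within the untreated range, 1 at 24 h and 2 at 48 h, and at 48 h all 3 lay below the water arrays, the nearest pair by less than 1 unit of signal. The ethephon differences from 0 h were 1.04 at 24 h and 0.53 at 48 h, beside 1.27 with water. The second probe set of bsd2, also a member, gave 0.84 and 0.25 with ethephon and 1.03 with water. Without untreated replicate 3, which was the low one, the water difference of the brighter probe set was 0.76 and that of ethephon, over both times, 0.28 (0.78 with it).

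The genes psbs1 and dxs1 were the plastid members, starch synthesis aside, that stood lower. The first, listed under the symbol CP22, encodes the photosystem protein that lets leaves shed excess light as heat. Signals were 1279.8, 2442 and 737 at ethephon 24 h, 2005, 1704 and 688 at ethephon 48 h, 1738, 1051 and 1461 at water 24 h, 1027, 1826 and 1752 at water 48 h, and 2303, 5061 and 2350.1 at 0 h. One ethephon array at 24 h reached the untreated range, which was itself spread by the second replicate. That replicate also had the highest leaf marker sum, 19728, and without it the water difference was -0.70. The differences were -1.19 and -1.18 with ethephon and -1.07 with water, and -0.68 for water once the model held the 3'/5' index. Whether leaf tissue or RNA quality took part in the difference was not tested.

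The gene dxs1 encodes the first enzyme of the plastid route to isoprenoids, the precursors of carotenoids and gibberellins. It read 449, 608 and 502 at ethephon 24 h, 381, 522 and 157 at ethephon 48 h, 633, 168 and 354 at water 24 h, 149, 331 and 261 at water 48 h, and 674, 761 and 655 at 0 h. All 6 ethephon arrays were below the 3 untreated ones, as the rule required of the water arrays. Some sprayed arrays were below by little. The differences were -0.43 and -1.14 with ethephon at 24 and 48 h and -1.31 with water. Over both times ethephon gave -0.79, and -0.52 without ethephon 48 h replicate 3. In the list of 18 photosynthesis and C4 genes with enough signal, tha9, rnc1 and psbs1 were the shifted ones, 2 higher and 1 lower. Of all 10577 probe sets 1.31% were shifted higher and 1.05% lower, before any were left out. The list's median water difference was -0.15 (ethephon -0.10), beside 0.039 over all probe sets.

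Cytokinin signalling was represented by RR5, a type-A response regulator, one of the proteins that cytokinin induces and that dampen its signal. RR5 read 525, 363 and 164 at ethephon 24 h, 525, 623 and 889 at ethephon 48 h, 607, 630.1 and 709.5 at water 24 h, 640.2, 524 and 638 at water 48 h, and 219, 222 and 350.4 at 0 h. Ethephon arrays at 48 h stood with the water arrays, while at 24 h they spread downward and the third lay below all untreated arrays. The ethephon difference from 0 h was thus 0.29 at 24 h and 1.36 at 48 h, beside 1.27 with water. Ethephon minus water at 24 h was -1.04 ± 0.36 (SE), with all 3 ethephon arrays below the 3 water arrays, and did not pass (limma, Benjamini-Hochberg adjusted p = 0.545). Ethephon at 48 h minus 24 h was 1.07, which also did not pass (limma, Benjamini-Hochberg adjusted p = 0.988). Of 12 cytokinin genes with enough signal RR5 alone met the rule (1.31% of all probe sets were shifted higher). The list's median was 0.22 with water and 0.09 with ethephon.

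The 3 members of sugar, starch and inositol metabolism stood below 0 h after either spray. The gene INO1, also listed as lpa1, encodes the synthase that turns glucose 6-phosphate into inositol phosphate, the start of inositol and phytate synthesis. It had 578, 231 and 193 at ethephon 24 h, 505, 137 and 398 at ethephon 48 h, 186, 316 and 150.2 at water 24 h, 352, 213 and 98.2 at water 48 h, and 1231, 1265 and 772 at 0 h. All 6 ethephon arrays were well below the untreated ones, on the side where the rule had placed the water arrays. Its differences were -1.85 and -1.82 with ethephon and -2.41 with water, the largest drop after water among the 18 named genes.

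The invertase gene ivr2 encodes a soluble enzyme that splits sucrose in the vacuole of expanding cells. Signals were 3293, 2589.6 and 2339.7 at ethephon 24 h, 919.6, 3061 and 1524 at ethephon 48 h, 539, 3197 and 4364 at water 24 h, 1274, 2035 and 5579.6 at water 48 h, and 8406, 9137 and 7389 at 0 h. Untreated arrays were high and close together, and sprayed arrays were lower but spread widely within groups. The differences were -1.61 and -2.35 with ethephon and -1.92 with water. Among 22 sugar and starch genes with enough signal, ivr2 was the 1 that met the rule (1.05% of all probe sets were shifted lower). In the list 12 had a water difference above 0 and 10 below, and the median was 0.03 with water and 0.00 with ethephon.

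For starch, GBSSIIa encodes a granule-bound synthase that makes amylose outside the grain. It read 226, 96.0 and 101 at ethephon 24 h, 120.4, 244 and 413 at ethephon 48 h, 312, 369 and 132 at water 24 h, 289.9, 243 and 76.6 at water 48 h, and 750.0, 461 and 921 at 0 h. Ethephon arrays did not overlap the untreated ones, which the rule had already set for the water arrays. Its differences were -2.39 and -1.57 with ethephon and -1.71 with water.

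Both lignin members had high and low arrays within ethephon groups. The gene 4CL encodes a 4-coumarate CoA ligase, which activates the acids from which lignin is built. Its signal was 1658, 1289 and 4391 at ethephon 24 h, 3816, 2392 and 847 at ethephon 48 h, 1036, 1001 and 649.5 at water 24 h, 1132, 912 and 2249 at water 48 h, and 2379, 2772 and 2970.2 at 0 h. Of the 6 ethephon arrays 3 were inside or above the untreated range and 3 were below it, so the groups overlapped. The ethephon difference from 0 h was -0.35 at 24 h and -0.45 at 48 h, 30.3% of the water difference of -1.32. Single arrays decided that share: over both times the ethephon difference was -0.40, and it was -0.62 without ethephon 24 h replicate 3 and -0.15 without ethephon 48 h replicate 3. At 24 h all 3 ethephon arrays lay above all 3 water arrays, a difference of 1.27 ± 0.55 (SE), which did not pass (limma, Benjamini-Hochberg adjusted p = 0.545).

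The gene BM1 encodes cinnamyl alcohol dehydrogenase, which makes the final lignin building blocks and gives brown midribs when mutated. It read 1874, 2096 and 6086 at ethephon 24 h, 5861, 3894 and 2220.0 at ethephon 48 h, 2171, 2586 and 2754 at water 24 h, 3669, 1957 and 4390.3 at water 48 h, and 5661, 5564 and 8529 at 0 h. Ethephon arrays fell into high and low ones within each time, and 2 of 6 reached the untreated range. The differences were -1.16 and -0.80 with ethephon and -1.20 with water.

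The 2 highest ethephon arrays were the same ones for both genes. The summed signal of 4 secondary wall markers, the cellulose synthase genes CesA10, CesA11 and CesA12 and the COBRA-like gene bk2, was 911, 834 and 21984 at ethephon 24 h, 16158, 10402 and 1358 at ethephon 48 h, 922, 1363 and 682 at water 24 h, 2507, 2738 and 5933 at water 48 h, and 723, 6964 and 4231 at 0 h. The third ethephon array at 24 h and the first at 48 h had the highest sums and the highest 4CL of all 15 arrays. Secondary walls form as cells mature. In such bulk tissue, fewer cells of a type and less RNA per cell cannot be told apart. Whether the amount of secondary wall tissue took part in the lignin gene differences was not tested.

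**Figure D5:**
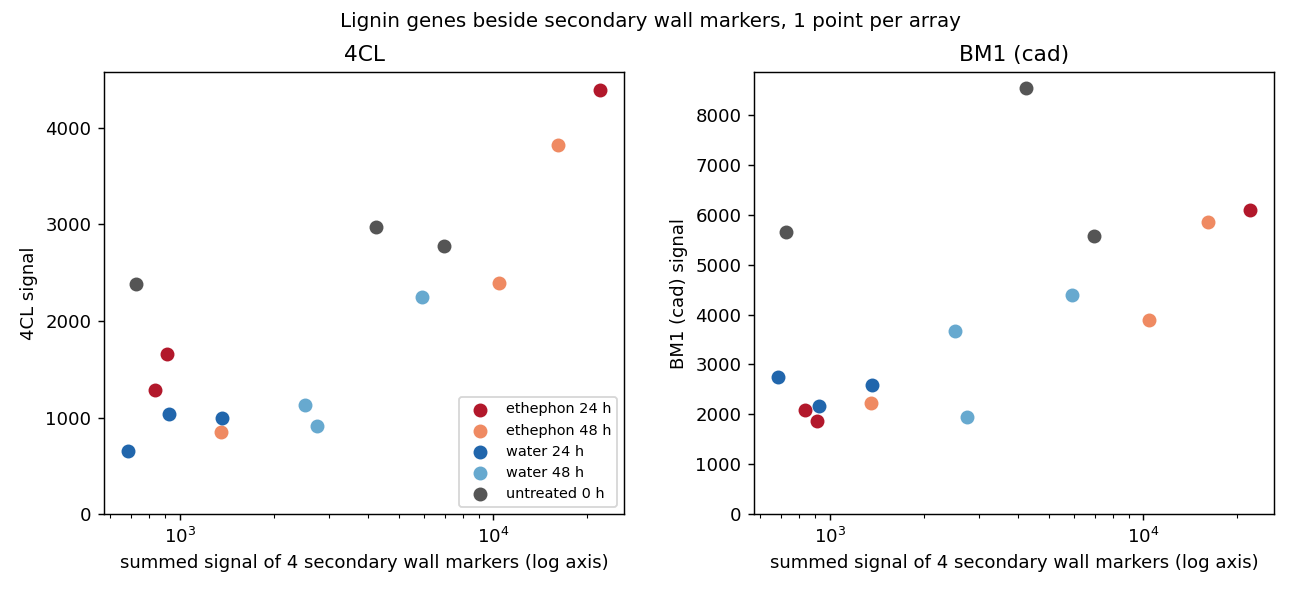
Signal of 4CL and of BM1 (vertical axes) against the summed signal of 4 secondary wall markers (horizontal log axis), with 1 point per array. The 2 ethephon arrays with sums of 21984 and 16158 have 4CL signals of 4391 and 3816, and untreated replicate 1 combines a sum of 723 with a 4CL signal of 2379.

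The gene expB4 encodes a β-expansin, a protein that loosens the grass cell wall. It read 2192, 5147 and 3370.4 at ethephon 24 h, 4932, 3648 and 781 at ethephon 48 h, 3075, 875 and 2732 at water 24 h, 1683, 1796 and 2942 at water 48 h, and 3335, 6876 and 5283 at 0 h. Only 2 of 6 ethephon arrays were below the untreated ones, and the first untreated array was close to the highest water array. The differences were -0.56 and -1.04 with ethephon and -1.30 with water. Over both times ethephon gave -0.80, and -0.42 without ethephon 48 h replicate 3. Of 22 wall and lignin genes with enough signal 2 were shifted, BM1 and expB4, both lower (1.05% of all probe sets were shifted lower). In this list 16 of the 22 had a water difference below 0. The list's median was -0.39 with water and -0.11 with ethephon. It did not carry 4CL.

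Among stress genes, HSP18 (also listed as hsp18a) encodes a small heat shock protein that holds unfolding proteins. Its signal was 3765, 2728 and 2292 at ethephon 24 h, 2644, 3099 and 2889.5 at ethephon 48 h, 2327, 2101 and 944 at water 24 h, 1675, 1780 and 1151 at water 48 h, and 5272, 2377 and 3868 at 0 h. Only 1 of 6 ethephon arrays was below the untreated range, and 2327 at water 24 h lay close under 2377 at 0 h. The ethephon difference from 0 h was -0.35 at 24 h and -0.34 at 48 h, 28.8% of the water difference of -1.20. Over both times it was -0.35, but -0.08 without untreated replicate 1 and -0.65 without untreated replicate 2. Over both times ethephon was 0.86 ± 0.25 (SE) above water, and this did not pass (limma, Benjamini-Hochberg adjusted p = 0.248). With arrays weighted by their quality it did pass (limma with array weights, Benjamini-Hochberg adjusted p = 0.0418). The water arrays on which HSP18 was chosen enter both fits. This by itself favours ethephon above water, so both p-values are a description only. In the fit with array weights HSP18 was the only named member called in any of the 6 comparisons. In the list of 13 chaperone genes 3 were shifted, all lower, and 1.05% of all probe sets were shifted lower. Of the 3 chaperone genes HSP18 is the member, and hsp101 and hsp22 belong to the genes left out by name. The list's median was -0.10 with water and -0.27 with ethephon.

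The gene gst6 encodes a glutathione transferase, an enzyme that couples glutathione to reactive or foreign compounds. It read 336, 418 and 840.0 at ethephon 24 h, 614, 566 and 482 at ethephon 48 h, 475, 462 and 776 at water 24 h, 616, 603 and 1133 at water 48 h, and 147, 449 and 252 at 0 h. The second untreated array stood high and reached 2 ethephon arrays of 24 h, while at 48 h all 3 were above it. The differences were 0.94 and 1.11 with ethephon and 1.34 with water. Over both times ethephon gave 1.03, and 0.63 without untreated replicate 1. Of 26 redox and glutathione genes gst6 was the 1 shifted (1.31% of all probe sets were shifted higher). The list's median was 0.20 with water and 0.24 with ethephon.

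Genome upkeep was represented by rad51a, whose protein pairs broken DNA with an intact copy. Its signal was 1184, 329 and 589 at ethephon 24 h, 282, 847 and 1228 at ethephon 48 h, 688, 1393 and 457 at water 24 h, 1362, 732 and 438 at water 48 h, and 414, 199 and 299.9 at 0 h. Sprayed arrays varied several-fold within each group, and 1 ethephon array at each time was inside the untreated range. The differences were 1.07 and 1.19 with ethephon and 1.38 with water. None of the 11 cell cycle and replication genes with enough signal met the rule, and 2.36% of all probe sets were shifted either way.

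The prohibitin gene phb1 encodes a scaffold protein of the inner mitochondrial membrane. The member probe set read 604, 529 and 387 at ethephon 24 h, 185, 529 and 533 at ethephon 48 h, 473, 561 and 541 at water 24 h, 439.6, 282 and 274 at water 48 h, and 242, 137 and 216 at 0 h. A single ethephon array, at 48 h, was in the untreated range. The differences were 1.37 and 0.95 with ethephon at 24 and 48 h, and 1.44 and 0.75 with water. Over both times the water difference was 1.09, and 0.79 once the model held the 3'/5' index. Probe sets of this gene disagreed, because a much brighter one with a mean signal of 2931 differed by 0.32 with water and by 0.01 and 0.24 with ethephon.

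For 2 higher genes no role can be given from the tables used here. LOC778431 read 1263, 1219.6 and 1162 at ethephon 24 h, 619, 1494 and 2297 at ethephon 48 h, 2216, 1988 and 1692 at water 24 h, 1651, 1498 and 891 at water 48 h, and 849.7, 261 and 710.1 at 0 h. The second untreated array was the low one, and 1 ethephon array at 48 h fell inside the untreated range. Its differences were 1.17 and 1.25 with ethephon at 24 and 48 h, and 1.85 and 1.27 with water (1.56 over both times). Without untreated replicate 2 the water difference over both times was 1.04 and that of ethephon 0.69 (1.21 with it). The gene SRP2B read 1668, 1891 and 1389.6 at ethephon 24 h, 1344, 2251 and 2284 at ethephon 48 h, 3090.4, 2244 and 2155 at water 24 h, 2299, 2718 and 1353 at water 48 h, and 1229, 467 and 1037 at 0 h. All ethephon arrays were above the untreated ones, at differences of 0.96 and 1.18, beside 1.41 with water. Without untreated replicate 2 that water difference was 0.99 and that of ethephon, over both times, 0.65 (1.07 with it), and a second probe set of SRP2B, which was no member, gave 0.51.

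Some probe sets without a gene name had larger computed differences than any named gene. Zm.1969.1.A1_at read 649.5, 1519.9 and 2860.3 at ethephon 24 h, 3517, 1315 and 2054 at ethephon 48 h, 1058, 2339 and 2862 at water 24 h, 3746, 2909 and 4201 at water 48 h, and 98.3, 191 and 131 at 0 h. Every ethephon array was several times brighter than every untreated one, on the side where the rule had placed the water arrays. The differences were 3.39 and 3.97 with ethephon and 4.28 with water. Its untreated mean was below the floor on mean signal, so it was kept only through the sprayed groups, and the size depends on how low signals are treated (3.39 with ethephon and 3.98 with water under an offset of 32, over both times). Zm.18429.1.A1_at read 954, 1665 and 726 at ethephon 24 h, 1233, 947 and 1458 at ethephon 48 h, 1988, 1737 and 2175 at water 24 h, 1655, 1774 and 1089 at water 48 h, and 91.2, 137 and 108 at 0 h. It too was far above 0 h in all 6 ethephon arrays. The differences were 3.25 and 3.43 with ethephon and 3.94 with water, whose arrays the rule had placed above. Its untreated mean was below the floor as well, and an offset of 32 gave 3.01 with ethephon and 3.60 with water.

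On the lower side Zm.11595.1.A1_at read 67.4, 83.1 and 63.3 at ethephon 24 h, 70.3, 63.4 and 72.2 at ethephon 48 h, 65.0, 72.8 and 101 at water 24 h, 58.0, 65.8 and 152 at water 48 h, and 1596, 2300.2 and 916 at 0 h. Untreated arrays were bright, and all 12 sprayed arrays were below the floor, at the level of seed markers such as ole1 and sh2. Computed differences of -4.40 and -4.45 with ethephon and -4.22 with water are therefore of uncertain size, and an offset of 32 gave -3.91 with ethephon and -3.75 with water. Zm.8568.1.S1_at read 311, 659.9 and 338 at ethephon 24 h, 382, 304 and 343 at ethephon 48 h, 923, 247 and 201 at water 24 h, 177, 162 and 129.9 at water 48 h, and 4705, 2124 and 6855 at 0 h. All ethephon arrays lay below all untreated ones, as the rule required of the water arrays. The differences were -3.31 and -3.58 with ethephon at 24 and 48 h, and -3.52 and -4.72 with water (-4.12 over both times). At 48 h all 3 ethephon arrays were above the 3 water arrays, a difference of 1.14 ± 0.54 (SE) that did not pass (limma, Benjamini-Hochberg adjusted p = 0.994).

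A further 2 unnamed members were singled out after their values were seen, as the extremes of the ethephon difference relative to that of water. Ethephon minus water compares the same values they were picked on, so the p-values given for it here are a description only. Zm.10253.1.A1_at, lower after water, read 1510.1, 2450.1 and 2883 at ethephon 24 h, 2218, 1214 and 723 at ethephon 48 h, 860.2, 307 and 596 at water 24 h, 337, 659 and 784 at water 48 h, and 921, 1419 and 1565 at 0 h. It was the only member whose mean over the 6 ethephon arrays lay on the other side of 0 h, with differences of 0.79 and -0.02 with ethephon and -1.21 with water. It also had the lowest p of all members for ethephon minus water, 1.59 ± 0.34 (SE) over both times, and did not pass (limma, Benjamini-Hochberg adjusted p = 0.191). It passed with array weights, at 24 h (limma with array weights, Benjamini-Hochberg adjusted p = 0.0284) and over both times (0.0171), and over both times without water 24 h replicate 1 (limma, adjusted p = 0.0466). Zm.7405.1.A1_at, higher after water, read 1177, 2004 and 1657 at ethephon 24 h, 501, 515 and 315 at ethephon 48 h, 996, 186 and 275 at water 24 h, 137, 479.8 and 134 at water 48 h, and 127, 86.5 and 128 at 0 h. Ethephon arrays of 24 h were the highest, and the differences were 3.81 and 1.95 with ethephon and 1.31 with water. Its untreated mean was below the floor. Over both times ethephon minus water was 1.58 ± 0.42 (SE) and did not pass (limma, Benjamini-Hochberg adjusted p = 0.230). It passed with array weights, at 24 h (limma with array weights, Benjamini-Hochberg adjusted p = 0.0358) and over both times (0.0215), and over both times without water 24 h replicate 1 (limma, adjusted p = 0.0429).

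Beyond these genes, 20 lists of named genes were laid beside the rule. Lists with a member numbered 6, and 9 of the 18 named genes stood on one. Members made up 2.22% of all probe sets with enough signal. The other 14 lists held none, among them 23 histone and chromatin genes (median 0.25 with water and 0.09 with ethephon), 14 tubulin and actin genes (-0.36 with water and -0.42 with ethephon), 12 auxin and meristem regulators (0.10 and 0.05) and 15 ribosomal protein and translation genes (0.05 with water and -0.12 with ethephon). Aquaporin and jasmonate lists held 1 shifted gene each, TIP2-1 (lower, of 17) and lox1 (higher, of 6), both left out by name. Of all probe sets 1.05% were shifted lower and 1.31% higher. Without array weights limma called 0 of the 266 list genes in the 6 comparisons. With array weights it called 12 for ethephon minus water at 24 h (1.49% of all probe sets) and 27 over both times (5.86% of all). Among them HSP18 was the 1 member.

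At the limit of a log2 difference of 1, the named genes just inside were psbs1 (-1.07) and phb1 (1.09). Just outside, with arrays that did not overlap, were LOC542189 and lls1, both at -0.97. Both of these had all 6 ethephon arrays below the untreated ones.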

How the data were processed

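Each of the 15 columns of the deposited table was 1 array, and 0 columns were left out. Values were linear MAS5 intensity signals as deposited by the authors, per the submitters' processing notes. The version of MAS5 and its scaling target are not given in the sources used here. Detection calls played no part. Log2 of the signal was used as it stood, with no offset and no normalization of array against array, since array medians lay between 297.8 and 370.4. The 113 control probe sets served for the 3'/5' index only. Members and gene lists were chosen with earlier results of these data known.

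limma 3.58.1 in R 4.3.3 fitted 5 group means, with variances moderated along mean signal, to the 10577 probe sets at or above the floor on mean signal. The 6 contrasts were adjusted by Benjamini-Hochberg at 0.05. The fit was tested on simulated data. Of 200 probe sets given a change it recovered 79.3% at a log2 change of 2 and 32.1% at a change of 1 in the 24 h comparison. The simulated spread was independent between arrays. Changed probe sets were drawn from all 10577, not from the members, which were dimmer and more variable. The recovery for members was therefore not measured. Python 3.11.15, pandas 2.3.3 and matplotlib 3.10.9 did the rest.

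Replicates are separate pools of 3 seedlings from 1 greenhouse experiment, so p-values measure the spread between pools, and precision is limited by having 3 arrays a group. Gene names came from the platform annotation, updated through RefSeq symbols: 1452 probe sets had exactly 1 gene, 1 had several and 16168 had none. Up to 12 named genes with the largest difference on each side were to be described, with the 4 whose ethephon arrays lay farthest back toward 0 h, and 2 unnamed probe sets on each side. Only 9 genes on each side had a name, so all 18 are given. Promoter and protein sequences were not used here. Alternatives were quantile normalization, an offset of 32, no floor on signal, array weights, a replicate block, a difference of 1.5, keeping the ethephon-separated probe sets, leaving out each array and, chosen after seeing the data, the 3'/5' index as a covariate.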

Additional observations from a re-analysis of the deposited data

How the results depend on the processing

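The count of 132 higher and 103 lower probe sets became 107 and 99 with quantile normalization, 107 and 100 with an offset of 32, 197 and 137 with no limit on mean signal, and 135 and 108 with ethephon-separated probe sets kept in. With a difference of at least 1.5 it was 42 and 47, of which 24 and 32 had all 6 ethephon arrays beyond 0 h, against 72 and 66. Leaving out each array in turn gave 110 to 347 higher and 84 to 243 lower members, with 65 to 152 and 55 to 119 followed by all 6 ethephon arrays. Fewer arrays loosen the demand that groups do not overlap. Without untreated replicate 1 the counts were 347 and 243 (152 and 119 followed), without untreated replicate 3 they were 222 and 141 (145 higher followed), and without water 48 h replicate 3 they were 242 and 163. Without untreated replicate 2, 183 of the 235 members were shared. With array weights, limma called 6 members for ethephon minus water at 24 h (1.49% of all probe sets) and 29 over both times (5.86%), against 0 and 0, and without water 24 h replicate 1 it called 3 over both times. In all other comparisons and settings run it called 0 of the members that each setting chose. Among the 235 members held fixed, it called 4 over both times without water 24 h replicate 1 and 2 without ethephon 48 h replicate 3. For single probe sets, Zm.11595.1.A1_at differed by -3.91 with ethephon under an offset of 32, and Zm.8568.1.S1_at by -4.87 with water under the 3'/5' index covariate. The cause of these moves was not tested. Replicate numbers did not pair the arrays: same-numbered arrays of different groups had correlations of deviations from -0.54 to 0.63 (median -0.05, 30 pairs), and 4 of 15 arrays correlated best with their own number. With a replicate block 0 members were called in all 6 comparisons. Dim signals limit the members too, since 59 higher and 18 lower ones reached the signal limit only through their brighter groups.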
